A study of Mus musculus with 28 samples.

Results

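The receptor chains and intracellular mediators of the interleukin-6 (IL-6) cytokine family were examined in bulk RNA-sequencing of mouse tail tendon fascicles. The 8 genes were chosen by their known roles, but with earlier results of these data known. *Il6ra*, *Il6st*, *Lifr*, *Osmr* and *Il11ra1* stand for the receptor chains. *Jak1*, *Stat3* and *Socs3* stand for the kinase, the transcription factor and its feedback inhibitor. They are 8 of the 25719 genes counted, and all of them passed the filter on low counts in every comparison. Each of the 28 libraries was taken as 1 mouse, all on the C57BL/6 background (C57Bl6/J in the study's methods). The early cohort held 7 non-transgenic controls (WT) and 8 Fosl2(Tg) mice aged 6 to 8 weeks, and the established cohort 6 WT and 7 Fosl2(Tg) mice older than 14 weeks. In the transgenic animals (Tg), a randomly inserted vector carries the murine *Fosl2* gene, which encodes a subunit of the AP-1 transcription factor, followed by eGFP and driven by the broadly active H2Kb promoter of the major histocompatibility complex. The controls came from the same breeding and lack the vector. The early cohort was all male (15 mice), whereas the established cohort had 11 females and, in each genotype, 1 male. Stage, age and sex therefore cannot be told apart between the cohorts.

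Cytokines of this family signal through the shared chain gp130, which *Il6st* encodes. IL-6 and IL-11 first bind their own receptor chains, encoded by *Il6ra* and *Il11ra1*, and the complex then joins a pair of gp130 chains. Leukemia inhibitory factor (LIF) pairs gp130 with the chain encoded by *Lifr*, and oncostatin M pairs it with the chain encoded by *Osmr*. Janus kinases such as JAK1, bound to the receptor tails, then phosphorylate STAT3, which enters the nucleus and induces, among other genes, *Socs3*. The SOCS3 protein binds gp130 and JAK1 and ends the signal, so that *Socs3* mRNA is often read as a trace of recent STAT3 activity. The family is known for acute-phase and wound responses.

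Libraries held between 9645598 and 66894396 counts assigned to genes. *Fosl2*, whose reads from the transgene and from the endogenous gene fall in 1 count, lay between 58.8 and 136 CPM (counts scaled to a common library size, per 1e6) in early WT mice (median 75.7) and between 63.3 and 156 CPM in early Tg mice (median 87.1). In the established cohort it ranged from 78.0 to 169 CPM in WT (median 105) and from 121 to 160 CPM in Tg mice (median 145). The genotypes overlapped in both cohorts, and *Fosl2* passed the test in neither (early log2 fold change 0.20 ± 0.24 SE, FDR = 0.918, established 0.38 ± 0.15, FDR = 0.141). All 9 tendon markers, among them the tendon transcription factor *Scx* and the tendon membrane protein *Tnmd*, were detected, and their summed level did not overlap between the established genotypes, at 92300 to 185711 CPM in WT and 3526 to 74799 CPM in Tg mice. All 9 had a negative log2 fold change there and 4 passed the test (*Col1a1*, *Col1a2*, *Scx* and *Tnmd*), where 6.51% of all genes did. In bulk tissue, fewer cells of a type and less RNA per cell cannot be told apart. Skeletal muscle markers varied widely within groups, from 41.2 to 16812 CPM summed over 10 genes in the established mice. Single markers of other cells also passed in established mice. The macrophage receptor gene *Cd163* was higher in Tg mice (log2 fold change 1.07 ± 0.14 SE, FDR = 0.00465) and the fractalkine receptor gene *Cx3cr1* lower (-1.81 ± 0.28, FDR = 0.00804), each without overlap between genotypes. As whole lists, none of 22 comparisons of 11 marker lists between genotypes passed an exact permutation test with adjustment, the lowest adjusted p being 0.0632, and the markers of T cells and adipocytes were near 0 (at most 1.68 and 2.08 CPM summed over 5 genes each).

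In established tendons, the receptor genes *Il6ra* and *Osmr* and the feedback inhibitor *Socs3* were higher in Tg than in WT mice. These were 3 of the 8 genes, against 6.51% of all 15862 genes tested (3.14% in the higher direction). None of the 8 had a log2 fold change of at least 1 together with an FDR of at most 0.05, which 1.96% of all genes had. The median log2 fold change was 0.48 over the 8 genes and 0.01 over all genes. For *Il6ra*, *Lifr* and *Osmr* every established Tg mouse lay above every WT mouse, 3 of 8 genes against 1.48% of all genes. Because the 8 genes were chosen with earlier results of these data known, these shares are a description and not a test of the set.

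*Il6ra*, the gene for the IL-6 binding chain, ranged from 19.9 to 28.5 CPM in established WT mice (median 24.3) and from 31.0 to 75.3 CPM in established Tg mice (median 45.1). The highest value belonged to Tg replicate 5, the male of that group, and the next Tg mouse was at 47.6 CPM. The means were 24.4 ± 4.22 CPM (SD, n = 6) and 45.7 ± 14.4 CPM (SD, n = 7), with a log2 fold change of 0.91 ± 0.18 (SE, FDR = 0.0179). The difference passed the threshold in each of the 13 fits that left out 1 mouse (log2 fold change 0.75 to 0.99, FDR 0.0103 to 0.0452), and was 0.75 without Tg replicate 5.

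*Osmr* encodes the chain that oncostatin M joins to gp130. Its level was 66.7 to 115 CPM in established WT mice (median 89.9) and 116 to 252 CPM in established Tg mice (median 135). The genotypes nearly met, at 115 CPM in WT replicate 2 and 116 CPM in Tg replicate 4. Tg replicate 5 was again the highest, and the next Tg mouse had 153 CPM. The log2 fold change was 0.74 ± 0.19 (SE, FDR = 0.0383). The call held in 6 of the 13 fits without 1 mouse (0.57 to 0.81, FDR 0.0349 to 0.0778) and was lost in the other 7, which left out WT replicate 1, 2, 4, 5 or 6 or Tg replicate 1 or 2. Among the 11 females it was 0.49 (FDR = 0.0588).

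*Lifr* encodes the LIF receptor chain, which also serves ciliary neurotrophic factor and cardiotrophin-1. Established WT mice were tightly grouped, between 136 and 176 CPM (median 169), and established Tg mice lay between 200 and 1328 CPM (median 261). The value of 1328 CPM was that of Tg replicate 5, and the second highest mouse stood at 431 CPM. Although no Tg mouse overlapped WT, the log2 fold change of 1.38 ± 0.42 (SE) missed the threshold (FDR = 0.062). Without Tg replicate 5 it was 0.75 and passed (FDR = 0.0254), and it also passed without Tg replicate 4 (1.50, FDR = 0.0499) or Tg replicate 7 (1.51, FDR = 0.0452), and among females (0.75, FDR = 0.0478). Apart from the fits without 1 mouse, 7 of 11 alternative fits called *Lifr* (FDR 0.00592 to 0.0774). The same fits called *Il6ra* in 11, *Osmr* in 9 and *Socs3* in 8, and they called 3.46% to 47.6% of all genes.

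*Il6st*, for gp130, ranged from 526.1 to 717 CPM in established WT (median 597) and from 613 to 859 CPM in established Tg mice (median 721). All 7 Tg mice were above the WT mean and 5 above the highest WT mouse, but the log2 fold change of 0.29 ± 0.11 (SE) did not pass (FDR = 0.128). *Il11ra1*, for the IL-11 binding chain, was the only one of the 5 member receptor genes with a negative value. It ranged from 98.9 to 132 CPM in WT (median 110) and from 57.4 to 122 CPM in Tg mice (median 82.8), with 5 of the 7 Tg mice below the lowest WT mouse (log2 fold change -0.39 ± 0.15 SE, FDR = 0.121). Near-identical copies lie next to this gene. With their counts added the value was -0.39 again (FDR = 0.125). *Il11ra1* passed without Tg replicate 6 (-0.50, FDR = 0.0401).

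**Figure D1:**
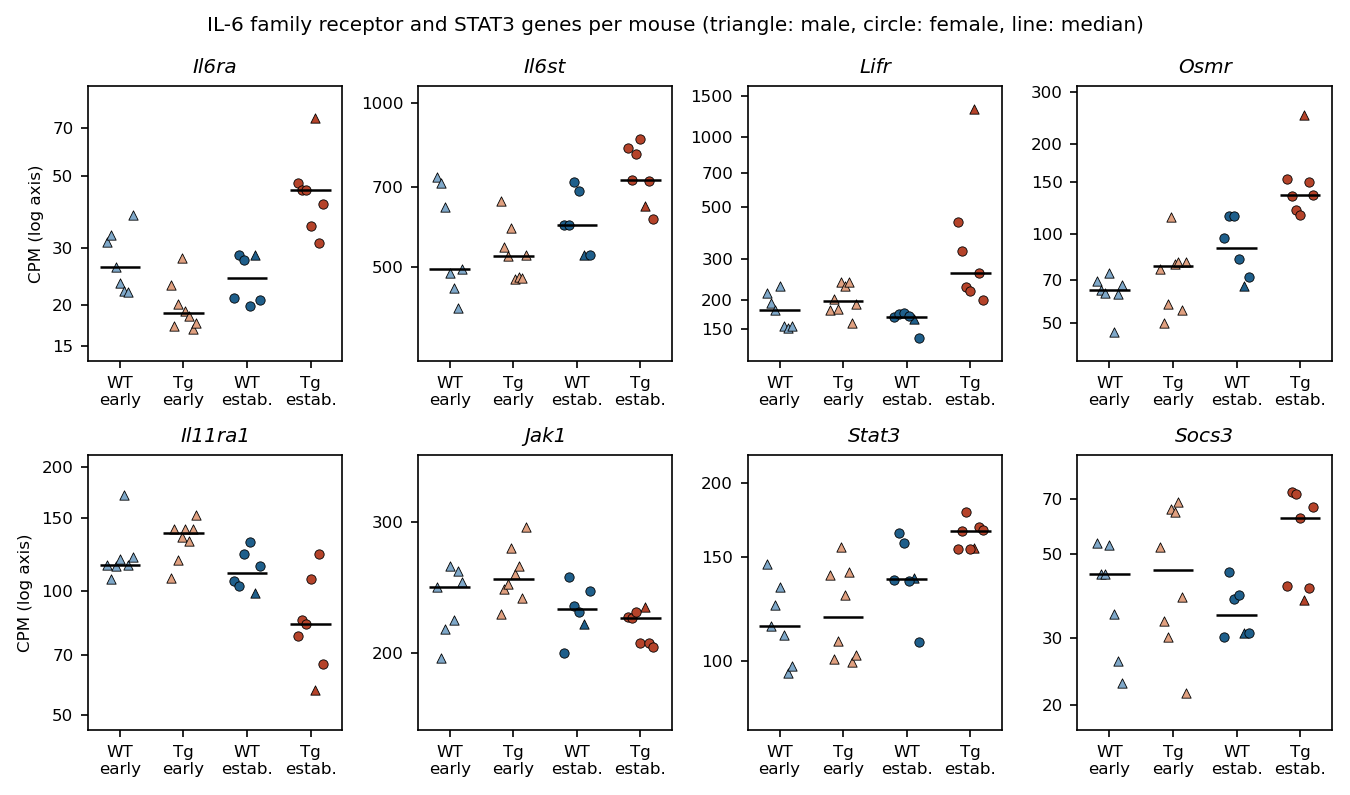
Normalized expression of the 8 genes in each mouse, in CPM on a log axis, by genotype (WT, Tg) and cohort (early, established). Triangles are males, circles females and lines group medians. In established Tg mice all values of *Il6ra*, *Lifr* and *Osmr* lie above those of established WT mice, and the male Tg replicate 5 is the highest for each of these genes.

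Downstream of the receptors, *Socs3* rose while *Jak1* and *Stat3* did not pass the test. *Socs3* ranged from 30.2 to 44.9 CPM in established WT mice (median 34.5) and from 37.9 to 73.1 CPM in established Tg mice (median 62.1). The Tg mice formed a lower cluster of 3 mice at 37.9, 40.6 and 41.2 CPM, within the WT range, and 4 mice at 62.1 CPM or more, above all WT mice. Tg replicate 5, the highest for 3 receptor genes, was the lowest of its group for *Socs3*. The log2 fold change was 0.67 ± 0.18 (SE, FDR = 0.0415). It held in 3 of the 13 fits without 1 mouse, those without Tg replicate 1, 5 or 6, and was lost in the other 10 (0.59 to 0.74 over all 13, FDR 0.0246 to 0.0878). Among females it was 0.70 (FDR = 0.0507), with all 4 groups in 1 fit 0.66 (FDR = 0.0819), and without a filter on low counts its FDR was 0.0561. The other alternative fits called it, 8 of 11 in all (lowest FDR 0.00149).

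*Stat3*, the transcription factor gene, lay between 108 and 164 CPM in established WT (median 137) and between 155 and 178 CPM in established Tg mice (median 166). All 7 Tg mice were above the WT mean, and the difference of 0.23 ± 0.09 (log2, SE) did not pass (FDR = 0.136). *Jak1*, for the kinase, differed least, with 200 to 253 CPM in WT (median 230) and 204 to 231 CPM in Tg mice (median 223), a log2 fold change of -0.07 ± 0.07 (SE, FDR = 0.566).

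The scaling of the libraries bears on these values. Scaling factors by the TMM method were 1.19 to 1.45 in established Tg and 1.03 to 1.10 in established WT mice. Without them, that is with total counts, the median log2 fold change of all established genes was 0.33, and 7236 of 7544 genes past the FDR threshold were higher in Tg mice, in place of 498 of 1032. On that scale *Il6ra* was at 1.26, *Osmr* at 1.08, *Socs3* at 0.98, *Lifr* at 1.75, *Il6st* at 0.61 and *Stat3* at 0.55, all above that median, while *Jak1* and *Il11ra1* stayed below it. *Jak1* turned from negative to 0.26 and passed on that scale (FDR = 0.0342), and *Il11ra1* was at -0.08.

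**Figure D2:**
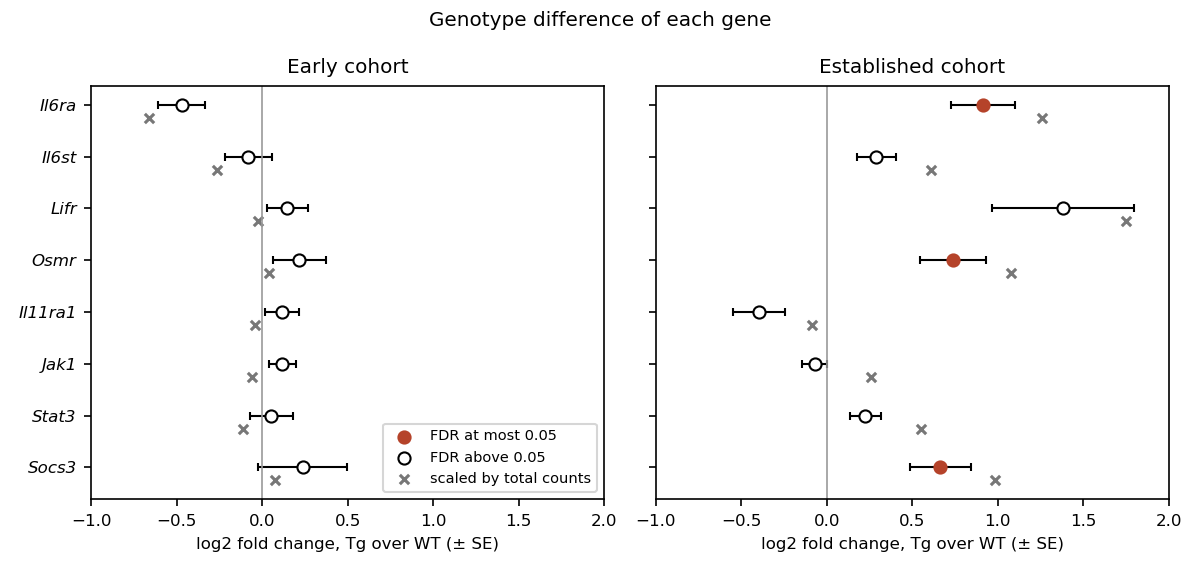
Log2 fold change of Tg over WT (circles, bars ± SE) for the 8 genes in the early and the established cohort, with filled circles for an FDR of at most 0.05. Crosses give the value with total count scaling, which shifted all genes together. *Il6ra*, *Osmr* and *Socs3* pass in the established cohort, and none does in the early cohort.

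**Figure D3:**
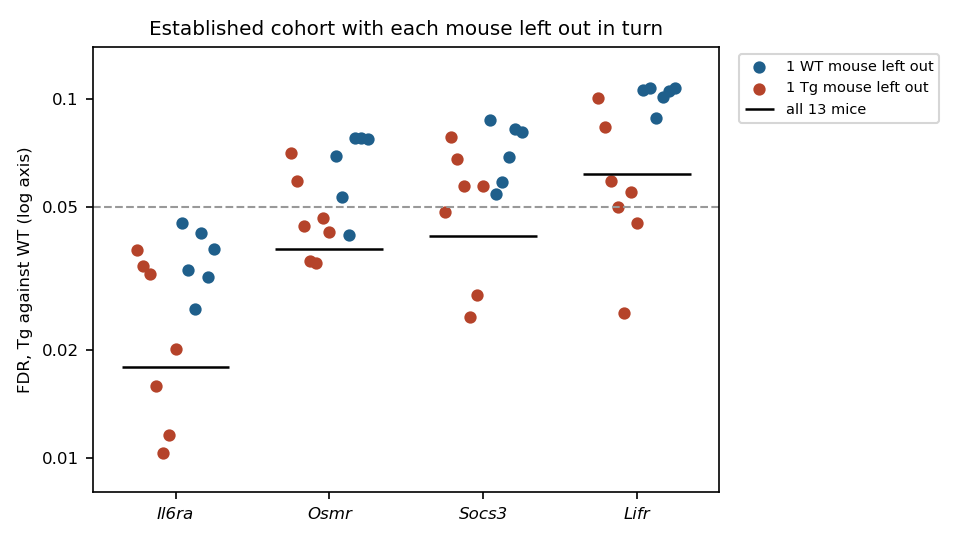
FDR of the established genotype difference (log axis) after leaving out each of the 13 mice in turn. The line marks the fit with all mice and the dashed line an FDR of 0.05. All points of *Il6ra* lie under the threshold, whereas *Osmr*, *Socs3* and *Lifr* cross it depending on the mouse left out.

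In the early cohort, none of the 8 genes passed edgeR's quasi-likelihood test (0.0396% of 15138 genes did). At an unadjusted p under 0.05, 1 of 8 was counted, against 6.06% of all genes. DESeq2 and limma voom each called 0 of the 8, and 0.15% and 0.0661% of all genes. The gene with that unadjusted p was *Il6ra*, at 21.95 to 37.8 CPM in WT (median 26.2) and 16.9 to 27.96 CPM in Tg mice (median 18.9). Of the 8 Tg mice 6 lay below the lowest WT mouse, the opposite side from the established cohort, with a log2 fold change of -0.47 ± 0.14 (SE, unadjusted p = 0.00344, FDR = 0.567).

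The other early values were small. *Lifr* was at 151 to 230.5 CPM in WT (median 180.1) and 159 to 239 CPM in Tg mice (median 197), a log2 fold change of 0.15 ± 0.12 (SE). *Osmr* was at 46.7 to 73.6 CPM (median 64.8) and 50.3 to 114 CPM (median 77.7), and 5 of 8 Tg mice exceeded every WT mouse while 3 did not (0.22 ± 0.15). *Socs3* spread most within groups, from 22.9 to 53.7 CPM in WT (median 44.3) and from 21.4 to 68.7 CPM in Tg mice (median 45.4), and its log2 fold change was 0.24 ± 0.26. *Il6st* had -0.08 ± 0.13, *Il11ra1* 0.12 ± 0.10, *Jak1* 0.12 ± 0.08 and *Stat3* 0.05 ± 0.13. With total count scaling the early median of all genes was -0.19, and *Lifr*, *Il11ra1*, *Jak1* and *Stat3* changed sign.

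Whether the genotype difference itself changed with stage was asked by an interaction term over all 28 mice. *Il6ra* was the only member that passed, 1 of 8 against 7.43% of 16082 genes (3.43% in the same direction). Its established difference exceeded its early one by 1.38 ± 0.23 (log2, SE, FDR = 0.00198), and it passed under each of the 7 alternatives run for this comparison (1.253 to 1.92, FDR 7.89e-06 to 0.00243), which include leaving out both established males. Most macrophage markers took the same course, with a negative log2 fold change for 10 of 10 in the early cohort (median -0.39, 0 called) and a positive one for 9 of 10 in the established cohort (median 0.22). As a list they did not pass between established genotypes (0.10, adjusted permutation p = 0.773). *Cx3cr1* was the exception, called lower in established Tg mice and at -1.42 ± 0.51 in the interaction (FDR = 0.0838). In the interaction 3 of the 10 macrophage markers were called higher, *Cd163* (1.44 ± 0.18), *Mrc1* (1.00 ± 0.19) and *Adgre1* (0.97 ± 0.23), as were 4 of 5 erythroid markers, all of them globin genes. Within genotypes, *Il6ra* and the macrophage score had r = 0.461 in early mice (adjusted permutation p = 0.332, rho = 0.671 with 0.0691, r = 0.332 without the 2 farthest mice) and r = -0.193 in established mice (adjusted permutation p = 0.778, rho = -0.0714 with 0.937, r = -0.485), and neither passed. The part of these cells in the *Il6ra* difference was not tested. *Lifr* followed at 1.22 ± 0.41 (FDR = 0.0643). *Osmr* (0.51 ± 0.25, FDR = 0.193) and *Socs3* (0.42 ± 0.33, FDR = 0.444) passed in the established cohort alone, but a change of their genotype difference between cohorts was not established.

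Each genotype was also compared between cohorts, with stage and sex changing together. In WT mice none of the 8 passed in edgeR, against 5.81% of all genes, although 2 of 8, *Osmr* (0.51 ± 0.18, unadjusted p = 0.00823, FDR = 0.0861) and *Stat3* (0.26 ± 0.12, unadjusted p = 0.0347, FDR = 0.186), had an unadjusted p under 0.05, as 22.4% of genes had. DESeq2 called 0 (8.47% of all genes) and limma voom 1 (13.3%). In Tg mice 7 of the 8 passed, 5 higher and 2 lower, where 47.8% of all genes did (25.8% higher and 22% lower). Established Tg mice exceeded early Tg mice by 1.19 ± 0.16 for *Il6ra*, 1.07 ± 0.28 for *Lifr*, 1.03 ± 0.17 for *Osmr*, 0.47 ± 0.12 for *Il6st* and 0.42 ± 0.11 for *Stat3* on the log2 scale (SE). *Il11ra1* fell by 0.64 and *Jak1* fell by 0.23, both of which turned positive with total count scaling (0.07 and 0.50, where the median of all genes was 0.76). *Socs3* was at 0.26 ± 0.23 and did not pass (FDR = 0.342).

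Put in order, the mean *Il6ra* level was lowest in early Tg mice (20.1 ± 3.75 CPM, SD, n = 8), then established WT (24.4), early WT (27.9 ± 6.12, n = 7) and established Tg mice (45.7). Of these neighbours, early and established WT mice did not differ beyond their spread (FDR = 0.534). The other 2 neighbouring pairs differ in both genotype and cohort and were not compared by a test. For *Osmr* the order was early WT (63.9 ± 8.50 CPM), early Tg (74.2 ± 20.2), established WT (91.3 ± 21.0) and established Tg (151 ± 46.2), where the first step did not pass (FDR = 0.863), the last did (FDR = 0.0383) and the middle one was not tested.

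Divided by exon length, which allows a rough comparison between genes, *Il6st* had the highest median of the 5 chains in each of these groups. In early WT mice *Il6st* had a median of 31.9 CPM per kilobase, *Il11ra1* 15.4, *Lifr* 13.1, *Osmr* 5.22 and *Il6ra* 2.96. In established Tg mice the medians were 46.4 for *Il6st*, 18.9 for *Lifr*, 11.1 for *Il11ra1*, 10.9 for *Osmr* and 5.10 CPM per kilobase for *Il6ra*. By median, *Il6ra* thus remained the least abundant chain, at 10.1% of *Il6st* per length in established Tg mice and 6.83% in established WT mice. The ranges of 7.14% to 20.4% and 5.05% to 9.50% overlapped. In Tg replicate 5, *Il11ra1* was lower than *Il6ra*, at 7.67 against 8.51 CPM per kilobase. *Lifr* reached 231% of *Il6st* in Tg replicate 5 and a median of 40.8% in its group. Exon lengths came from GENCODE release M39 and merge all annotated exons of a gene, whichever transcripts are expressed. Levels per length are therefore rough for all 5 chains. The length of *Il11ra1* also includes a far longer annotated transcript.

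On GRCm39, *Osmr* (chr15:6843053-6904450, minus strand) and *Lifr* (chr15:7120095-7226970, plus strand) lie near each other. *Il6ra* is at chr3:89771366-89820719 (minus strand), *Il6st* at chr13:112600604-112646620 (plus strand) and *Stat3* at chr11:100775924-100830450 (minus strand). *Socs3* (chr11:117856905-117860898, minus strand) is the only member with a STAT motif in the RefSeq promoter windows of the 8 genes. These windows reach from 250 bases before to 50 bases after each annotated start (GRCm38.p6 table, 10 windows for the 8 genes). The motif TTCNNNGAA, which reads the same on both strands and is the form bound by STAT dimers, stands 154 bases before the RefSeq start of *Socs3*. It occurs in 8.30% of all 32851 RefSeq windows. The stretch is shown because *Socs3* is a known STAT3 target, with the motif in capitals, from chr11:117860328-117860356 on the minus strand of GRCm39:
*Socs3*: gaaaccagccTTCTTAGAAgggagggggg
GENCODE M39 places the same bases inside the first, non-coding exon of 1 of its 8 *Socs3* transcripts. Further transcripts, among them Socs3-206 and Socs3-207, start farther upstream and hold these bases in an intron. The AP-1 motif TGACTCA, searched on both strands as TGACTCA or TGAGTCA, is in 5.202% of all windows and in those of 0 of the 8 members. Such a match is a description of letters in a window and not of binding.

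Of the cytokines themselves, *Il6* had at most 7 counts in any library and 0 in 12 of 28, where a count of 0 allows up to 0.083 to 0.334 CPM, counting error only. *Osm*, the gene for oncostatin M, had 0 to 21 counts, with 0 in 3 libraries. Both were too low to be tested. *Il11* lay between 0.43 and 4.98 CPM and *Lif* between 0.43 and 5.00 CPM over the 28 mice, and neither passed (established log2 fold change 0.64 ± 0.45 SE, FDR = 0.377 for *Il11*, and -0.57 ± 0.34, FDR = 0.294 for *Lif*). *Clcf1*, a ligand gene of the ciliary neurotrophic factor receptor, lay between 7.59 and 18.6 CPM. Of 11 ligand genes 6 were tested in the established cohort and 1 passed, where 6.51% of all genes did. This was *Ctf1* for cardiotrophin-1, which was lower in Tg mice (log2 fold change -1.22 ± 0.34 SE, FDR = 0.0499, at 0.81 to 1.95 CPM in WT and 0.13 to 0.87 CPM in Tg mice). In the early cohort 7 ligands were tested and 0 passed, where 0.0396% of all genes did.

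Other genes of the pathway were read from lists of known members. Of 6 further receptor chains and sheddases 5 were tested in the established cohort and 1 passed, where 6.51% of all genes did. This was *Il31ra*, which pairs with the *Osmr* chain to form the IL-31 receptor. It was at 0.91 to 1.66 CPM in WT (median 1.012) and 1.14 to 3.55 CPM in Tg mice (median 2.75), a log2 fold change of 1.15 ± 0.25 (SE, FDR = 0.0227). None of 8 further Janus kinase and STAT genes and none of 13 further inhibitors, *Socs1* (-0.67 ± 0.25, FDR = 0.108) and *Cish* (0.83 ± 0.36, FDR = 0.166) among them, passed in either cohort. Of all genes, 0.0396% passed in the early cohort and 6.51% in the established cohort.

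Of 21 genes known as STAT3 targets in other tissues 20 were tested in the established cohort. Of these 3 rose and 1 fell, where 3.14% of all genes rose and 6.51% passed in either direction. *Cebpd*, a transcription factor of the acute-phase response, rose from 20.3 to 67.8 CPM in WT (median 42.1) to 58.9 to 139 CPM in Tg mice (median 107, log2 fold change 1.33 ± 0.26 SE, FDR = 0.0157). *Serpina3n*, a secreted protease inhibitor of that response, rose from 7.34 to 27.6 CPM (median 12.3) to 21.5 to 120 CPM (median 54.7, 2.30 ± 0.46, FDR = 0.0179), and *Pim1*, a survival kinase, rose by 0.72 ± 0.20 (FDR = 0.0486). *Saa3*, an acute-phase apolipoprotein of low level here (0.06 to 1.85 CPM in the established mice), fell by 1.89 (FDR = 0.0466). The median of the 20 genes was 0.50, beside 0.01 for all genes, and 17 had a positive value. Of 19 tested early, 0 passed, where 0.0396% of all genes did. Their early median was 0.19, beside -0.01 for all genes. *Junb*, at 0.57 ± 0.22 (FDR = 0.116), did not pass in established mice.

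Between mice of the same genotype, *Socs3* was followed against the other 7 members in each cohort, 14 relations in all, on log2 CPM centred on the genotype means. In the 15 early mice it went with *Stat3* (Pearson r = 0.884, adjusted permutation p = 0.00294, Spearman rho = 0.871, adjusted permutation p = 0.00252) and with *Lifr* (r = 0.733, adjusted permutation p = 0.0247, rho = 0.711, adjusted permutation p = 0.0237). Without the 2 mice farthest from the median of *Stat3* or *Lifr* the coefficients were 0.875 and 0.668, and the relations did not both pass. In the 13 established mice no relation passed, *Stat3* being at r = 0.469 (adjusted permutation p = 0.182) and rho = 0.462. The coefficients of both cohorts were not compared by a test.

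**Figure D4:**
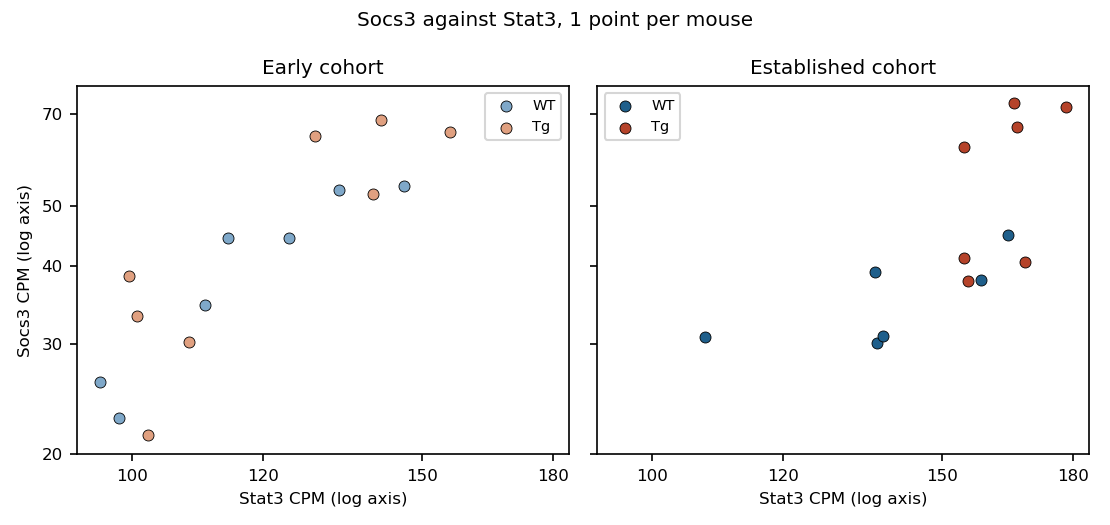
*Socs3* against *Stat3* in CPM (log axes), 1 point per mouse, for the early (n = 15) and established (n = 13) cohorts. Early mice of both genotypes line up, with r = 0.884 within genotypes, while the established mice are more scattered at r = 0.469.

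The early relation ran beside immediate-early genes, which are known to respond quickly to many stimuli. Over 80 relations of the members with 4 marker lists and with depth, looked at after the data were seen, 8 passed by both coefficients. With the mean of 10 immediate-early genes, *Fos*, *Egr1* and *Junb* among them, early *Socs3* had r = 0.905 (adjusted permutation p = 0.0024, rho = 0.918 with 0.0008) and r = 0.964 without the 2 farthest mice. Early *Stat3* had r = 0.804 (adjusted permutation p = 0.0155, rho = 0.811 with 0.0203, r = 0.858 without those mice). Established *Socs3* went with the total count of the library (r = 0.761, adjusted permutation p = 0.0286, rho = 0.802 with 0.0203, r = 0.798 without the 2 farthest mice), and the 3 Tg mice of low *Socs3* were Tg replicates 1, 5 and 6, the libraries of lowest depth in that group, at 9664327 to 11560533 counts. Early *Il6st* went with macrophage markers (r = 0.835, adjusted permutation p = 0.0086, rho = 0.825 with 0.0203, r = 0.807 without the 2 farthest) and against total counts (r = -0.815, adjusted permutation p = 0.0086, rho = -0.746 with 0.0399, r = -0.705). Established *Il6st* went against muscle markers (r = -0.879, adjusted permutation p = 0.0086, rho = -0.780 with 0.0485, r = -0.820). *Il11ra1* went against macrophage markers in early mice (r = -0.678, adjusted permutation p = 0.0286, rho = -0.729 with 0.0203, r = -0.646) and against muscle markers in established mice (r = -0.704, adjusted permutation p = 0.0194, rho = -0.747 with 0.0438, r = -0.858). The part of these measures in the genotype differences was not tested. With the muscle score as a covariate, the established fit called *Il6ra* (0.95), *Osmr* (0.74) and *Socs3* (0.62). It also called *Lifr* (1.33, FDR = 0.0413) and *Il11ra1* (-0.50, FDR = 0.0233). That fit called 10.7% of all genes, against 6.51% without the covariate.

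Within genotypes of the established cohort, *Il6ra* was higher where tendon markers were lower (r = -0.850, adjusted permutation p = 0.0115), with rho = -0.687 missing the threshold (adjusted permutation p = 0.0704) and r = -0.635 without the 2 mice farthest from the median. *Lifr* had r = -0.889, which missed it too (adjusted permutation p = 0.0793, rho = -0.637 with 0.184) and rested on those mice, since r was -0.185 without them. Tg replicate 5 had the lowest tendon marker level of all mice, 3526 CPM, and the highest *Il6ra*, *Lifr* and *Osmr*.

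**Figure D5:**
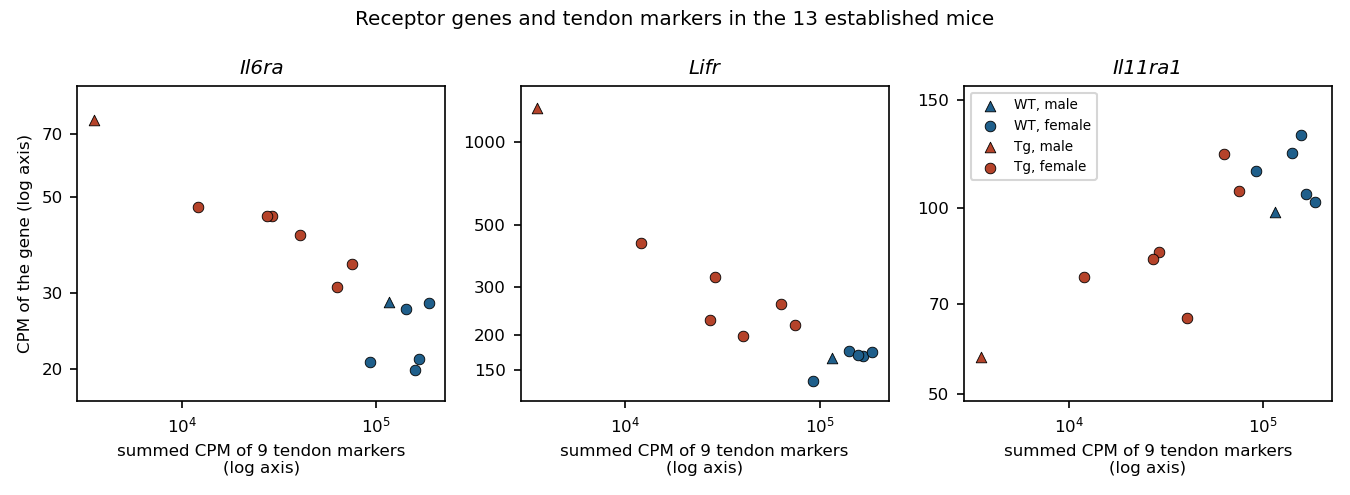
*Il6ra*, *Lifr* and *Il11ra1* in CPM against the summed CPM of 9 tendon markers (log axes) in the 13 established mice, with triangles for males. Tg mice lie at lower marker levels than all WT mice, and Tg replicate 5 is at the far end for each gene.

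Over all 28 mice, centred on the 4 group means, the genes most like *Socs3* among 13331 were *Junb* (r = 0.927), *Jund* (r = 0.873) and *Nectin1* (r = 0.852). For *Il6st* they were *Ncoa3* (r = 0.955), *Ctdsp2* (r = 0.937) and *Rnf167* (r = 0.922), and for *Osmr* *Dock5* (r = 0.798), *Jmjd1c* (r = 0.780) and *Usp54* (r = 0.768). These coefficients share libraries and depth and are given as a description.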

How the data were processed

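Gene counts of 28 tail tendon libraries, 1 per mouse, were analysed, with genotype, cohort, sex and replicate number from the labels. The authors mapped reads with STAR to GRCm39 (GENCODE M26) and counted them with featureCounts, and the deposited values are raw counts, neither normalized nor filtered. Strand and multi-mapping settings are not given in the sources used here, so overlapping genes and near-identical copies are uncertain. Of 25719 identifiers, 25505 were named with GENCODE M39. The counts of each cohort were filtered (filterByExpr, minimum count 10, minimum total 15), scaled by TMM and tested with the quasi-likelihood test of edgeR 4.0.16 in R 4.3.3, with Benjamini-Hochberg adjustment over all genes and a threshold of FDR 0.05. A fit of all 4 groups gave the interaction and the comparisons between cohorts. Values per mouse are CPM with TMM factors over all libraries, log2 CPM used a prior count of 2, and a limit for a count of 0 is 3 counts. The labels give each library a sex and a replicate number and name no pooling, so each was taken as 1 mouse, and p-values measure the spread between these libraries. All permutation tests were two-sided and permuted mice within genotype (100000 resamples) for relations, or genotype labels exactly for marker lists.

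The members and lists were chosen with earlier results of these data known, and the lists support nothing beyond their counts. Named genes were the members, *Fosl2*, the ligands *Il6*, *Il11*, *Lif* and *Osm*, pathway genes with an FDR of at most 0.05 in either cohort, marker genes a result turns on, and the 3 genes most like *Il6st*, *Osmr* and *Socs3*. *Clcf1*, *Socs1*, *Cish* and *Junb* were named after their values were seen. Alternatives were RLE scaling, no filter, a mean of at least 1 CPM, DESeq2 1.42.0 (the authors' tool), voom of limma 3.58.1 with quality weights, a replicate block, a muscle score as covariate, females only, sex as a covariate, all groups in 1 fit and each mouse left out. Total count scaling, and the relations with marker scores and depth, were added after the data were seen.

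Same-numbered early mice deviated together from their group means (correlations 0.140 to 0.404 in 7 of 7 pairs), which meets the criterion used for pairing, every pair over 0.1, from these data and not from the labels. However, 0 of the WT and 1 of the Tg mice correlated best with their own number. The early values reported come from the fit without the block, and the block was run as an alternative. In the established cohort 4 of 6 pairs were over 0.1 (lowest -0.225), and the numbers were not treated as pairs. Figures were drawn with matplotlib 3.10.9.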

Additional observations from a re-analysis of the deposited data

Results flagged for a closer look

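Of 32 sets of values (8 genes in 4 groups), 6 held 1 mouse far from the others by Dixon's test at 95%, where chance flags about 1 in 20. Established Tg replicate 5, a male, was the high one for *Lifr* (1328 CPM), *Osmr* (252 CPM) and *Il6ra* (75.3 CPM). Established WT replicate 6 was low for *Lifr* (136 CPM). Early WT replicate 5 was low for *Osmr* (46.7 CPM) and high for *Il11ra1* (171 CPM). The genotype difference of *Il6ra* changed between cohorts, by 1.38 on the log2 scale in the interaction test.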

How the results depend on the processing

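Of 8 members, 3 passed in the established cohort, and leaving out each mouse gave counts from 1 to 4. The count was 1 without Tg replicate 2 or without WT replicate 1, 2, 4, 5 or 6. It was 7 with total count scaling, where 47.6% of all genes were called. It was 5 with the muscle score as covariate (10.7% of all genes) and 0 with the added fold change threshold (1.96%). The early count was 0 under every alternative run, where at most 0.15% of all genes were called. For the difference between cohorts the count of 1 became 6 with total count scaling, where 50.3% of all genes were called and their median was 0.53. It became 2 with DESeq2 (10.1% of all genes) or voom (12.1%). For WT mice between cohorts, 0 became 2 with total count scaling (14.8% of all genes). It became 1 with voom (13.3%) or without the established males (5.61%). The 2 relations of *Socs3* that passed became 1 without the 2 farthest mice. Marker lists stayed at 0 when z-scored.

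With the replicate block the established count was 2 (5.83% of all genes called), since *Osmr* (0.73, FDR = 0.0891) was lost. The established numbers are only shared numbers: 2 of 6 WT and 2 of 6 Tg mice correlated best with their own number. The block changed no early member call (0), and moved the early count over all genes from 6 to 11.

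Signs changed as follows, and the cause was not tested beyond the shift of all genes. With total count scaling, *Jak1* was at 0.26 in the established cohort, where it now passed (FDR = 0.0342), *Lifr* at -0.0264, *Il11ra1* at -0.0438, *Jak1* at -0.0575 and *Stat3* at -0.11 in the early cohort, and *Jak1* at 0.32 for the difference between cohorts. WT mice between cohorts had 0.0109 for *Il6ra*, 0.0808 for *Lifr*, 0.11 for *Il11ra1*, 0.18 for *Jak1* and 0.0781 for *Socs3*, and Tg mice 0.0711 for *Il11ra1* and 0.50 for *Jak1*. Early *Stat3* was at -0.016 with voom, and early *Il6st* at 0.073 with the muscle score. Leaving out 1 early mouse gave -0.14 to 0.0054 for *Il6st* and -0.005 to 0.13 for *Stat3*.

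Over all genes, established calls numbered 1032, and 2179 with DESeq2, 1984 with voom, 1701 with the muscle score, 560 among females, 1663 with all groups in 1 fit and 361 to 1166 without 1 mouse. At these group sizes a missed threshold does not show that a gene is unchanged.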
